A study of Mus musculus with 6 samples.

Results

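The TNF and TNF receptor superfamilies were examined in adipocytes of newborn mice with and without adipocyte deletion of *Lats1* and *Lats2*, the kinases of the Hippo pathway. Members were chosen by symbol: every gene named Tnfsf or Tnfrsf with a number, *Traf1* to *Traf7*, and *Tnf*, *Lta*, *Ltb*, *Ltbr*, *Fas*, *Fasl*, *Cd40*, *Cd27* and *Cd70*. This gave 48 of the 37384 gene symbols in the count table: 16 ligands, 24 receptors, 7 TRAF adaptors and *Tnfsf13os*, a transcript from the strand opposite *Tnfsf13*.

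RNA was sequenced from adipocytes that floated after collagenase digestion of inguinal scWAT, the subcutaneous white fat of the groin, from male mice at P7. There were 3 L1L2-FF libraries (Lats1f/fLats2f/f, without Cre) and 3 L1L2-AKO libraries (Lats1f/fLats2f/fAdipoqCre), so the floxed alleles were common to both groups. Each library held the pooled cells of 4 mice. The *Adipoq* promoter drives Cre in adipocytes, and any other cell that floated with them kept both genes and also gave RNA to the library. Total counts ranged from 30548473 to 32107917 per library. *Lats1* fell in L1L2-AKO, from 82.9 ± 9.90 to 40.2 ± 1.16 CPM (counts scaled by library size with TMM factors; SD, n = 3), with a log2 fold change of -1.04. *Lats2* went against the label: it rose from 76.4 ± 8.68 to 119 ± 20.6 CPM, with a log2 fold change of 0.64 (edgeR quasi-likelihood test with Benjamini-Hochberg adjustment, adjusted p = 0.0278). That call was lost without L1L2-FF replicate 1 (adjusted p = 0.100) or 3 (0.0651), or L1L2-AKO replicate 2 (0.104) or 3 (0.0946). By quantitative PCR, the authors reported lower *Lats1* and *Lats2* RNA in adipocytes isolated from P7 mice of these genotypes. Counts over a whole gene include exons outside a deleted part. All directions below are therefore those of the libraries labelled L1L2-AKO against the libraries labelled L1L2-FF.

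TNF superfamily ligands are mostly made as membrane proteins that can be shed, and they act as trimers on receptors of the matching family. Receptors with a death domain can recruit adaptors for cell death, and most of the others bind TRAF proteins and lead to NF-κB and kinase signalling. In fat, TNF is known for its effects on lipolysis, adipogenesis and insulin action, and macrophages are a known source of it.

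Of the 48 members, 37 had enough counts to be tested and 11 did not. Among the 37, 5 rose and 1 fell at an adjusted p under 0.05. All 5 that rose were receptors without a death domain: *Tnfrsf1b*, *Tnfrsf12a*, *Tnfrsf13b*, *Tnfrsf11a* and *Cd40*. The 1 that fell was the adaptor gene *Traf5*. No ligand, death-domain receptor or decoy receptor among the members passed edgeR's test or limma-voom. *Edar*, a death-domain receptor gene whose symbol lies outside the rule, passed both and is given below. DESeq2's Wald test called 1 of them, the death-domain receptor gene *Tnfrsf1a*. At an unadjusted p under 0.05 edgeR gave 0 ligands, 1 death-domain receptor and 0 decoys. The 6 calls were 16.2% of the tested members, next to 16.5% of all 15674 tested genes, so the families as a whole were not called more often than the table. In the upward direction the share was 13.5% against 9.28% of all genes, and in the downward direction 2.70% against 7.18%. The median log2 fold change was 0.11 over the tested members and -0.02 over all tested genes. Libraries of the genotypes did not overlap for 12 tested members, or 32.4%, against 36.4% of all genes. When single libraries were omitted, the count of members that rose went from 0 (L1L2-AKO replicate 2 omitted) to 6 (L1L2-FF replicate 2 omitted). Omitting L1L2-FF replicate 1 gave 1, omitting L1L2-AKO replicate 3 gave 2 and omitting L1L2-AKO replicate 1 gave 3, of which 2 were among the 5 and the other was *Tnfrsf1a*. The 6 without L1L2-FF replicate 2 were the 5 and *Tnfsf8*, and 4 of the 5 remained without L1L2-FF replicate 3. *Traf5* was not called in the fits that omitted L1L2-FF replicate 1 or L1L2-AKO replicate 2 or 3.

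**Figure D1:**
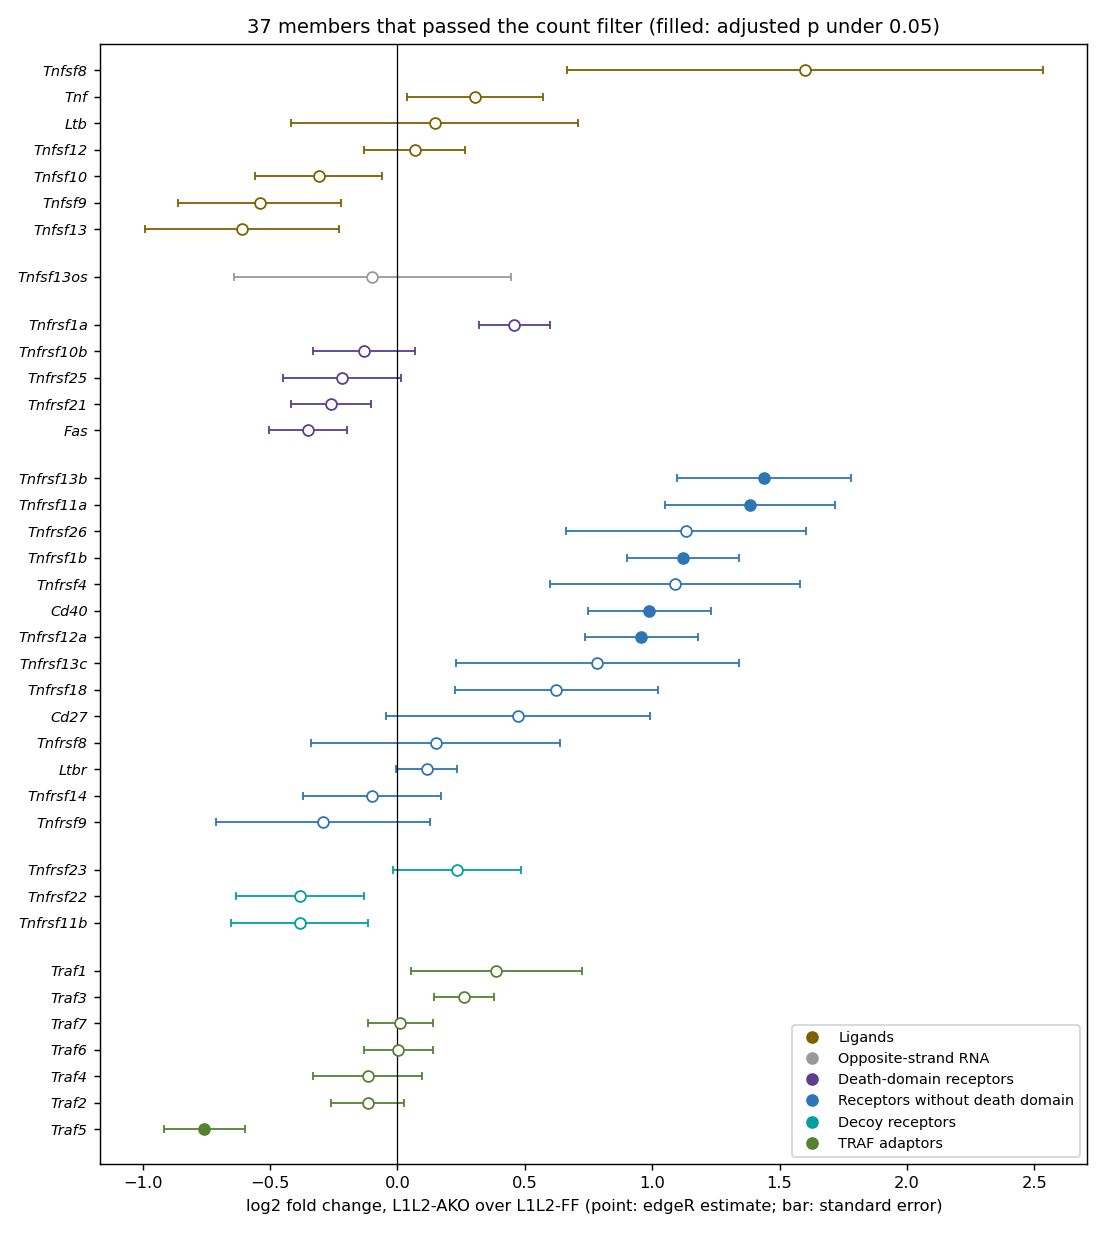
Log2 fold change of L1L2-AKO over L1L2-FF (x axis) for each of the 37 tested members (y axis), coloured by class; points are edgeR estimates, bars are standard errors, and filled points passed an adjusted p of 0.05. The filled points to the right of 0 are the 5 receptors without a death domain, and the filled point to the left is *Traf5*.

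Among the receptors, *Tnfrsf1b* had the smallest adjusted p. It encodes TNFR2, the TNF receptor without a death domain that is prominent on immune cells, and lies at chr4:145213463-145246870 of mm10 on the minus strand. Its level was 16.5, 24.3 and 14.9 CPM in L1L2-FF replicates 1 to 3 and 31.5, 44.8 and 44.9 CPM in L1L2-AKO replicates 1 to 3. Every L1L2-AKO library stood above every L1L2-FF library. The mean rose from 18.6 ± 5.06 to 40.4 ± 7.72 CPM (SD, n = 3), a log2 fold change of 1.12 ± 0.22 (SE, adjusted p = 0.0122). The call was lost without L1L2-FF replicate 1 (adjusted p = 0.0583) or L1L2-AKO replicate 2 (0.0534).

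*Tnfrsf12a* (chr17:23675445-23677468, minus strand) encodes Fn14, the receptor of the ligand TWEAK. Its level was 19.9, 16.5 and 31.2 CPM in the L1L2-FF libraries and 46.6, 43.3 and 41.6 CPM in the L1L2-AKO libraries. The groups did not overlap, and the L1L2-AKO libraries lay closer together than the L1L2-FF libraries. The log2 fold change was 0.96 ± 0.22 (SE, adjusted p = 0.0228). The call ended when L1L2-FF replicate 1 was omitted (adjusted p = 0.0997), and likewise for L1L2-AKO replicate 1 (0.0574), 2 (0.0736) or 3 (0.0633).

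*Tnfrsf11a* (chr1:105780718-105847981, plus strand) encodes RANK, the receptor that drives osteoclast formation from myeloid precursors. It was counted at 2.01, 1.73 and 0.902 CPM in L1L2-FF and at 4.16, 4.73 and 3.25 CPM in L1L2-AKO, without overlap. The log2 fold change was 1.38 ± 0.33 (SE, adjusted p = 0.0268). This call was lost without L1L2-AKO replicate 1 (adjusted p = 0.0624) or 2 (0.103).

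*Tnfrsf13b* (chr11:61126755-61149372, plus strand) encodes TACI, a receptor of B cells and macrophages for the ligands APRIL and BAFF. Its level was 1.92, 3.28 and 1.22 CPM in L1L2-FF and 5.28, 6.15 and 6.01 CPM in L1L2-AKO. The groups did not overlap, and its log2 fold change of 1.44 ± 0.34 (SE, adjusted p = 0.0255) was the largest among the called members. It was no longer called without L1L2-FF replicate 1 (adjusted p = 0.0981) or L1L2-AKO replicate 2 (0.0866) or 3 (0.0782).

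*Cd40* (chr2:165055627-165072948, plus strand), the costimulatory receptor of B cells and myeloid cells, stood at 1.92, 1.92 and 1.48 CPM in L1L2-FF and at 4.04, 3.27 and 3.25 CPM in L1L2-AKO. The groups did not overlap, and the log2 fold change was 0.99 ± 0.24 (SE, adjusted p = 0.0280). Among the libraries, only L1L2-FF replicate 2 could be left out without losing this call, and the adjusted p without another library ranged from 0.0655 to 0.0865. *Cd40*, *Tnfrsf11a* and *Tnfrsf13b* had between 28 and 194 reads per library, whereas *Tnfrsf1b* and *Tnfrsf12a* had between 461 and 1546.

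**Figure D2:**
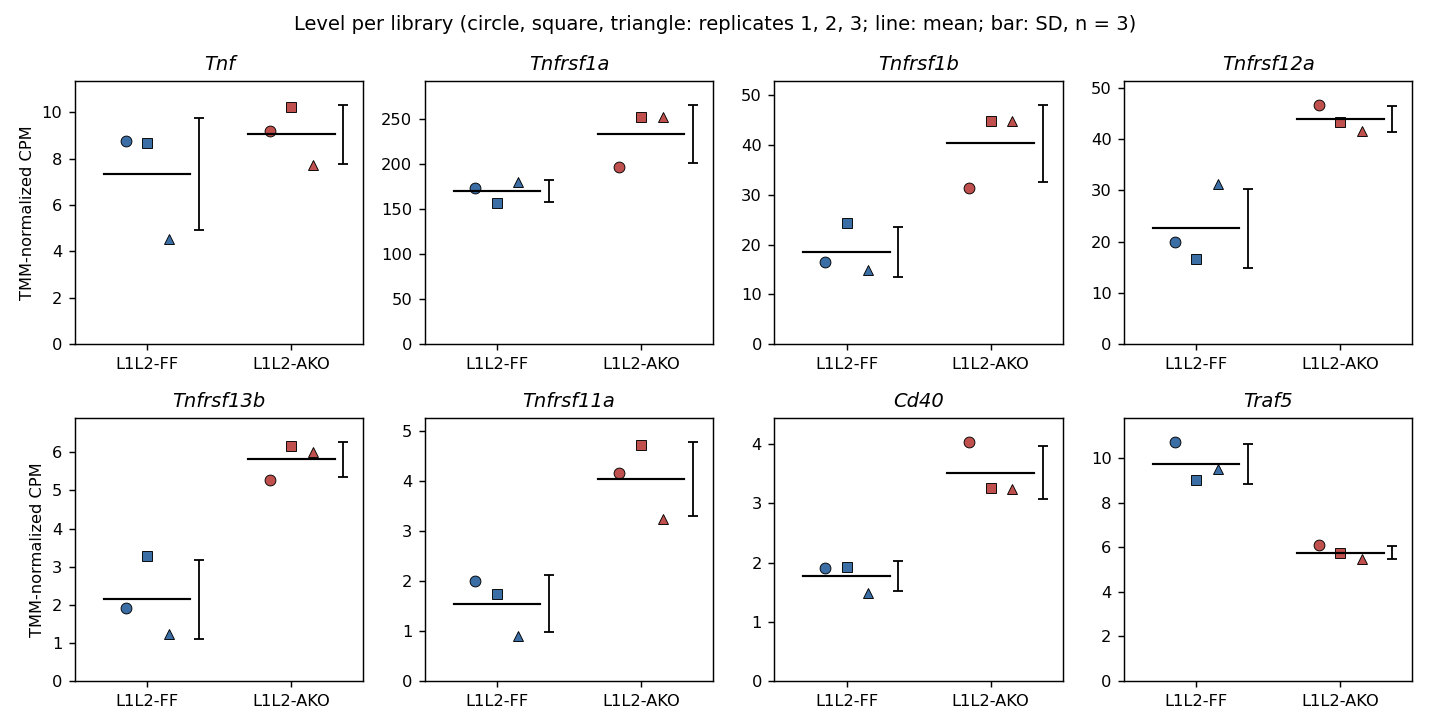
TMM-normalized CPM (y axis, starting at 0) in each L1L2-FF and L1L2-AKO library for *Tnf*, its receptor genes and the other called members; circle, square and triangle are replicates 1, 2 and 3, the line is the mean and the bar the SD (n = 3). *Tnf* overlaps between the groups, and the other 7 genes shown do not. Apart from *Tnfrsf1a*, those 7 are shown because they passed the test, so their separation is no further evidence. Of all tested genes, 36.4% did not overlap.

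The sequence before the start of a gene is shown for 3 of the receptors that rose, because these are the ones with a match to a motif of the factors at the end of the Hippo or the NF-κB pathway. TEAD factors are the DNA-binding partners of YAP and TAZ. Each line gives 250 bases up to the base before the RefSeq start in GRCm38.p6, 5′ to 3′ on the strand of the gene. Capitals mark the 6 letters of the TEAD motif GGAATG, searched on both strands so that it can read CATTCC. They also mark the 10 letters of the κB consensus GGRNNYYYCC, likewise searched on both strands. R stands for A or G, Y for C or T and N for any base. The windows are chr4:145246871-145247120 (minus strand) for *Tnfrsf1b*, chr1:105780473-105780722 (plus strand) for *Tnfrsf11a* and chr11:61126505-61126754 (plus strand) for *Tnfrsf13b*.
Tnfrsf1b: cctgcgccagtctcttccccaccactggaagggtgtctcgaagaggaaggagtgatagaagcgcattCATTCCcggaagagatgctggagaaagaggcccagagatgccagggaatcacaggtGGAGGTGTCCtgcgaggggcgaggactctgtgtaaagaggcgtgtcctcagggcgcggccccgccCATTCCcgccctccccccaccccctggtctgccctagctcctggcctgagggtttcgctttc
Tnfrsf11a: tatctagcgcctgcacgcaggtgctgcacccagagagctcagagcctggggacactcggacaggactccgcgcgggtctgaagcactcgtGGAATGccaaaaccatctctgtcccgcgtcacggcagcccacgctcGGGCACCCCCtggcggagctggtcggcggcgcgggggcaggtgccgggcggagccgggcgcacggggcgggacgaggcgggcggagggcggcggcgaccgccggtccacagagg
Tnfrsf13b: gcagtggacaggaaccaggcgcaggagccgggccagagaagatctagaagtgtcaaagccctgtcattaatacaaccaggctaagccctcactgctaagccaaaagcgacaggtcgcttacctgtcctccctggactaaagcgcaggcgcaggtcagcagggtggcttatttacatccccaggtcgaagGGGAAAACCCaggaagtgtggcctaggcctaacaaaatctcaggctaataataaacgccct

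In *Tnfrsf1b* the TEAD letters began 183 and 62 bases before the start and the κB letters 127 bases before it. *Tnfrsf11a* held the TEAD letters 160 bases and the κB letters 114 bases before the start, and *Tnfrsf13b* held the κB letters 61 bases before it. No TEAD match overlapped a κB match in these windows. The windows of *Tnfrsf12a* and *Traf5* held neither motif, and no window for *Cd40* was in the table used. Over the 300-base windows of the table, which reach 50 bases past the start, 38 members had 42 windows. The κB letters were in a window of 18 members and the TEAD letters in a window of 6. Members that were not called were among them, such as *Tnf*, *Fas* and *Traf3* for κB and *Traf1* and *Tnfsf13* for TEAD. The TEAD letters were in 14.3% of the member windows and 14.7% of all 32851 windows, and the κB letters in 45.2% and 19.5%. These are matches of letters and show no binding.

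On a scale that corrects for transcript length (TPM), the level of *Tnfrsf1a* was the highest of all members. It encodes TNFR1, the death-domain receptor found on most cells, and lies at chr6:125349362-125362484. Its level was 189 ± 3.29 TPM in L1L2-FF and 274 ± 25.4 TPM in L1L2-AKO (SD, n = 3). The libraries of *Tnfrsf1a* did not overlap, with 173, 156 and 180 CPM in L1L2-FF and 196, 251 and 252 CPM in L1L2-AKO. Its log2 fold change was 0.46 ± 0.14 (SE) and missed the threshold (edgeR, adjusted p = 0.0579). It passed with library size alone as the scaling (adjusted p = 0.0467), with DESeq2's Wald test (0.0222) and without L1L2-AKO replicate 1 (0.0333).

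The other death-domain receptors had fitted values below 0 and did not pass. *Fas*, the receptor of Fas ligand, was at 22.9, 23.2 and 20.5 CPM in L1L2-FF and 14.3, 18.1 and 19.9 CPM in L1L2-AKO. The groups did not overlap, with a log2 fold change of -0.35 ± 0.15 (SE, edgeR, adjusted p = 0.162). The log2 fold changes were -0.13 for *Tnfrsf10b*, the mouse receptor of TRAIL, -0.26 for *Tnfrsf21*, which encodes death receptor DR6, and -0.22 for *Tnfrsf25*, the receptor of the ligand TL1A.

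*Ltbr*, the lymphotoxin β receptor of stromal cells and macrophages, was second in level at 122 ± 7.83 TPM in L1L2-FF and 140.4 ± 15.8 TPM in L1L2-AKO, and its log2 fold change was 0.11 ± 0.12 (SE, edgeR, adjusted p = 0.581). *Tnfrsf12a*, *Fas* and *Tnfrsf1b* followed among the receptors at 33.4, 31.2 and 14.2 TPM in L1L2-FF. *Tnfrsf12a* and *Fas* did not differ in L1L2-FF beyond their SD of 9.84 and 3.57 TPM. In L1L2-AKO the order was *Tnfrsf12a* at 69.7, *Tnfrsf1b* at 32.1 and *Fas* at 25.7 TPM.

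Receptors named for lymphocytes were low. *Cd27*, *Tnfrsf4* (OX40), *Tnfrsf8* (CD30), *Tnfrsf13c* (the BAFF receptor) and *Tnfrsf18* (GITR) had mean levels between 0.527 and 1.05 TPM in L1L2-FF. Their log2 fold changes ran from 0.15 to 1.09, and none passed. The libraries did not overlap for *Tnfrsf4*, with 6, 26 and 14 reads in L1L2-FF and 30, 33 and 33 reads in L1L2-AKO (edgeR, adjusted p = 0.177). *Tnfrsf9*, which encodes the T cell receptor 4-1BB, and *Tnfrsf14*, which encodes HVEM, had log2 fold changes of -0.29 and -0.10. Of the receptors, *Tnfrsf17* (BCMA, of plasma cells) and *Tnfrsf19* (TROY) had too few reads to be tested, with at most 15 in a library.

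The 3 decoy receptors, which bind ligand without signalling, did not pass. *Tnfrsf11b*, osteoprotegerin, the soluble decoy of RANK ligand, was at 1.60, 1.95 and 1.77 CPM in L1L2-FF and 1.57, 1.17 and 1.33 CPM in L1L2-AKO. The groups were separate by a small margin, and the log2 fold change was -0.38 ± 0.27 (SE, edgeR, adjusted p = 0.389). *Tnfrsf22* and *Tnfrsf23*, TRAIL decoys next to each other on chromosome 7, had log2 fold changes of -0.38 and 0.23. Their values are uncertain, since 27.4% and 19.3% of their 50-base stretches also occur in other genes, most of them in each other. The neighbour *Tnfrsf26* was at 21, 18 and 6 reads in L1L2-FF and 34, 40 and 24 in L1L2-AKO (log2 fold change 1.13 ± 0.47, SE, edgeR, adjusted p = 0.145).

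No ligand passed the test. *Tnf* itself (chr17:35199381-35202007, minus strand) was at 8.78, 8.66 and 4.54 CPM in L1L2-FF and 9.17, 10.2 and 7.72 CPM in L1L2-AKO. The groups overlapped, and L1L2-FF replicate 3 stood below the other libraries. The log2 fold change was 0.30 ± 0.27 (SE, edgeR, adjusted p = 0.500), and it ranged from 0.05 to 0.45 with each library left out. A difference in *Tnf* was not detected with 3 libraries a group.

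*Tnf*, *Tnfsf10* (TRAIL) and *Tnfsf12* (TWEAK) were the 3 ligands with the highest level per length, at 13.0 ± 4.67, 12.9 ± 5.30 and 9.97 ± 2.21 TPM in L1L2-FF (SD, n = 3). These 3 values did not differ beyond their spread. *Tnfsf10* had a log2 fold change of -0.31 ± 0.25 and *Tnfsf12* of 0.07 ± 0.20 (SE). The level of *Tnfsf12* and of *Tnfsf13*, which encodes APRIL, is uncertain, because 46.8% and 57.3% of their 50-base stretches also occur in the readthrough transcript *Tnfsfm13*, which had 0 reads in the table. *Tnfsf13os* overlaps *Tnfsf13* on the opposite strand, and with the strand setting of the counting unknown their reads cannot be told apart. *Tnfsf13* had 13 to 40 reads per library, and its log2 fold change was -0.61 ± 0.38 (SE). For *Tnfsf13os* the log2 fold change was -0.10 ± 0.55 (SE).

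The remaining tested ligands were *Tnfsf9*, *Ltb* and *Tnfsf8*. *Tnfsf9*, the ligand of 4-1BB, was at 5.27, 3.37 and 2.35 CPM in L1L2-FF and 2.29, 2.92 and 2.34 CPM in L1L2-AKO, where L1L2-FF replicate 1 stood apart (log2 fold change -0.54 ± 0.32, SE). *Ltb*, lymphotoxin β, varied most among the ligands of over 10 reads in every library, with 1.44, 3.56 and 0.612 CPM in L1L2-FF and a coefficient of variation of 81.3%. *Tnfsf8*, the CD30 ligand, had 2, 12 and 0 reads in L1L2-FF and 7, 22 and 13 in L1L2-AKO. Its log2 fold change of 1.60 ± 0.93 (SE, edgeR, adjusted p = 0.295) passed only without L1L2-FF replicate 2.

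The 9 ligands with too few reads were *Cd70*, *Fasl*, *Lta*, *Tnfsf4*, *Tnfsf11*, *Tnfsf13b*, *Tnfsf14*, *Tnfsf15* and *Tnfsf18*. *Cd70*, the ligand of CD27, was at 0 in all 6 libraries, which allows up to 3 reads per library. *Fasl* had at most 5 reads, and *Tnfsf11*, which encodes RANK ligand, at most 6. *Tnfsf13b*, which encodes the B cell factor BAFF, had 4, 5 and 3 reads in L1L2-FF and 7, 7 and 8 in L1L2-AKO. Those groups do not overlap but rest on so few reads that no fold is given.

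**Figure D3:**
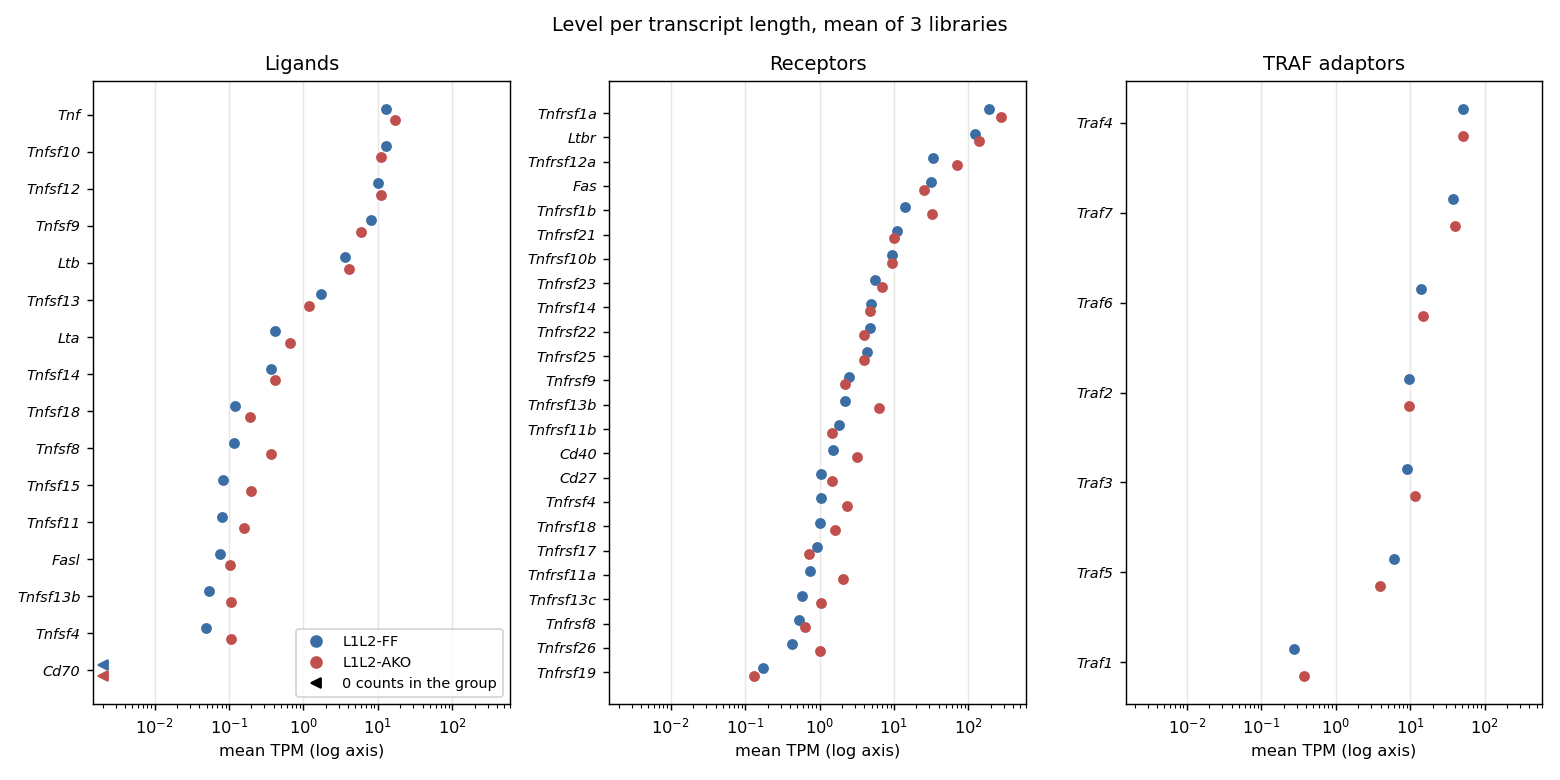
Mean TPM of 3 libraries (x axis, log scale) of each ligand, receptor and TRAF gene in L1L2-FF and L1L2-AKO, ordered by the L1L2-FF level; the triangle marks *Cd70* with 0 reads. Receptors reach 189 TPM in L1L2-FF (*Tnfrsf1a*) and ligands 13.0 TPM (*Tnf*).

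Ligand RNA of the 5 called receptors was at unlike levels, and those of *Tnfsf12* and *Tnfsf13* (APRIL) are uncertain, as stated above. RANK ligand RNA was at 0.08 ± 0.08 TPM in L1L2-FF and 0.16 ± 0.09 TPM in L1L2-AKO, against 0.752 and 2.08 TPM for its receptor gene *Tnfrsf11a*. BAFF RNA was at 0.05 ± 0.02 and 0.11 ± 0.01 TPM and APRIL RNA at 1.71 ± 0.55 and 1.18 ± 0.43 TPM, against 2.22 and 6.26 TPM for *Tnfrsf13b*. *Cd40lg*, the gene of the *Cd40* ligand, was at 0.445 ± 0.273 TPM in L1L2-FF and 1.13 ± 0.607 TPM in L1L2-AKO, against 1.51 and 3.18 TPM for *Cd40*. *Tnf* was at 13.0 and 17.0 TPM beside 14.2 and 32.1 TPM for *Tnfrsf1b*. *Tnfsf12*, the TWEAK gene, was at 9.97 and 11.1 TPM beside 33.4 and 69.7 TPM for its receptor gene *Tnfrsf12a*. Ligand made in other tissues or cells would not be seen in these libraries.

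Of the 7 TRAF genes, *Traf5* passed the test and the other 6 did not. Over all tested genes, 16.5% passed. *Traf5* (chr1:191997205-192092559, minus strand) encodes an adaptor of CD40, OX40 and the lymphotoxin β receptor. Its level was 10.8, 9.03 and 9.51 CPM in L1L2-FF and 6.09, 5.74 and 5.48 CPM in L1L2-AKO. The groups were well apart, with a log2 fold change of -0.76 ± 0.16 (SE, edgeR, adjusted p = 0.0160). The call was lost without L1L2-FF replicate 1 (adjusted p = 0.0761) or L1L2-AKO replicate 2 (0.0692) or 3 (0.0651).

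*Traf3*, which restrains the noncanonical NF-κB kinase NIK, was at 22.2, 21.4 and 25.5 CPM in L1L2-FF and 28.2, 26.6 and 28.1 CPM in L1L2-AKO. The groups did not overlap, but the log2 fold change of 0.26 ± 0.12 (SE, edgeR, adjusted p = 0.174) missed the threshold. *Traf4*, at 50.7 ± 10.7 TPM, and *Traf7*, at 37.3 ± 3.44 TPM, had the highest levels of the family in L1L2-FF and *Traf1*, at 0.27 ± 0.08 TPM, the lowest. The log2 fold changes were 0.39 ± 0.34 for *Traf1*, -0.12 ± 0.14 for *Traf2* and -0.12 ± 0.21 for *Traf4* (SE). *Traf2* encodes the adaptor of TNFR2 and, through TRADD, of TNFR1. For *Traf6*, the adaptor that RANK shares with Toll-like receptors, and *Traf7* the fitted value was 0.00 ± 0.13 and 0.01 ± 0.13 (SE), and both signs turned with upper-quartile scaling.

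Genes that act with the receptors were counted by list. None of 24 genes for adaptors, kinases and ubiquitin enzymes of the TNF receptor complexes passed in edgeR, DESeq2 or limma-voom. In edgeR that was 0%, against 16.5% of all tested genes, and 2 of the 24 had an unadjusted p under 0.05. The median log2 fold change of the 24 was 0.13. *Ripk1*, the kinase of the TNFR1 complex, had a log2 fold change of 0.14, *Casp8*, the initiator caspase, of -0.10, and *Map3k14*, which encodes NIK, of 0.44. *Tnfaip3*, the NF-κB-induced inhibitor A20, had a log2 fold change of -0.45 ± 0.34 (SE), with L1L2-FF replicate 3 at 50.3 CPM and the other L1L2-FF libraries at 123 and 153 CPM.

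Of 15 IKK and NF-κB genes, 1 rose and 1 fell, or 13.3% called against 16.5% of all tested genes. *Ikbke*, a noncanonical IκB kinase, was at 4.69, 5.63 and 3.00 CPM in L1L2-FF and 8.93, 8.72 and 8.87 CPM in L1L2-AKO (log2 fold change 0.99 ± 0.24, SE, edgeR, adjusted p = 0.0274). Without L1L2-FF replicate 1 or any single L1L2-AKO replicate it was not called, with an adjusted p of up to 0.0844. *Nfkbiz*, an NF-κB-induced nuclear IκB, fell from 230.0 ± 79.2 to 90.9 ± 5.74 CPM (log2 fold change -1.34 ± 0.25, SE, edgeR, adjusted p = 0.0101), and was called without any 1 library. *Nfkbia*, the inhibitor IκBα and itself a target, was at 256, 264 and 135 CPM in L1L2-FF and 116, 132 and 122 CPM in L1L2-AKO. It did not pass (log2 fold change -0.83 ± 0.24, SE, edgeR, adjusted p = 0.0518), except with upper-quartile scaling, DESeq2's Wald test, no filter on low counts, or without L1L2-FF replicate 3.

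Of 20 textbook NF-κB target genes, 19 were tested, of which 6 rose, 1 fell and 12 did not pass. The share called was 36.8%, against 16.5% of all tested genes, with 31.6% higher against 9.28% and 5.26% lower against 7.18%. Their median log2 fold change was 0.76, against -0.02 over all tested genes. Of the 19, 12 were fitted higher and 7 lower. Among the latter, *Cxcl1* went from 264 ± 77.9 to 158 ± 17.5 CPM without overlap. It did not pass (log2 fold change -0.74 ± 0.22, SE, edgeR, adjusted p = 0.0601). *Nfkbiz*, *Nfkbia* and *Tnfaip3*, also induced by NF-κB, were counted in the other lists and had negative log2 fold changes. DESeq2's Wald test called 9 higher and 2 lower of the 20, and limma-voom 5 higher and 1 lower. *Il6*, the cytokine, went from 4.74 ± 1.25 to 34.8 ± 19.1 CPM (log2 fold change 2.88 ± 0.48, SE, edgeR, adjusted p = 0.00593). *Csf1*, the growth factor of macrophages, had a log2 fold change of 2.23 ± 0.26 (adjusted p = 0.00153), and *Ccl2*, the monocyte chemoattractant, of 2.15 ± 0.28 (adjusted p = 0.00229). These 3 were called without any 1 library. *Lcn2*, lipocalin-2, was at 3.10, 5.29 and 2.96 CPM in L1L2-FF and 4.34, 36.2 and 35.8 CPM in L1L2-AKO. The groups overlapped through L1L2-AKO replicate 1, and the call (log2 fold change 2.75 ± 0.70, SE, edgeR, adjusted p = 0.0325) was lost with limma-voom (0.177) and without L1L2-FF replicate 1 or 3 or L1L2-AKO replicate 2 or 3, with an adjusted p of up to 0.120. The other 2 that rose were *Ptgs2*, the prostaglandin synthase COX-2, and *Cxcl2*, a neutrophil chemokine. Among the fits with a library omitted, *Cxcl2* was past the threshold only when that was L1L2-FF replicate 1 (adjusted p of up to 0.143 in the others), and upper-quartile scaling also ended its call (0.0513). *Ptgs2* was not past the threshold without L1L2-FF replicate 1 or L1L2-AKO replicate 2 or 3 (up to 0.105). *Cxcl10*, a chemokine also induced by interferon, was the one that fell, from 36.7 ± 13.0 to 13.2 ± 1.47 CPM (log2 fold change -1.47 ± 0.24, SE, edgeR, adjusted p = 0.00611).

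Of 6 genes for the shedding of TNF family proteins, *Timp3*, the inhibitor of the sheddase ADAM17, rose from 143 ± 45.9 to 272 ± 18.0 CPM (log2 fold change 0.92 ± 0.21, SE, edgeR, adjusted p = 0.0239). Its call was lost without L1L2-FF replicate 1 or any single L1L2-AKO replicate (adjusted p of up to 0.102). *Adam17* itself had a log2 fold change of 0.19 ± 0.10 (SE). Among 8 superfamily genes with other names, 6 were tested and 2 rose (33.3%, and 16.7% in the shedding list, against 9.28% of all genes). *Edar*, the death-domain receptor of ectodysplasin, had 2 to 5 reads in L1L2-FF and 11 to 25 in L1L2-AKO (log2 fold change 2.65 ± 0.60, SE, edgeR, adjusted p = 0.0217). It met the minimum count of 10 only in L1L2-AKO, so its entry to the test was not independent of its rise. The share of 33.3% includes it and cannot be set against that of all genes. *Relt*, a receptor of lymphoid tissue, had a log2 fold change of 0.68 ± 0.19 (SE, adjusted p = 0.0474). With any single library left out *Relt* was not called (adjusted p of up to 0.160), nor was it with upper-quartile scaling (0.0615), library size alone (0.0848), limma-voom (0.0513) or no filter on low counts (0.0580). *Edar* was called without L1L2-FF replicate 1 or L1L2-AKO replicate 1 only (up to 0.0878).

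**Figure D4:**
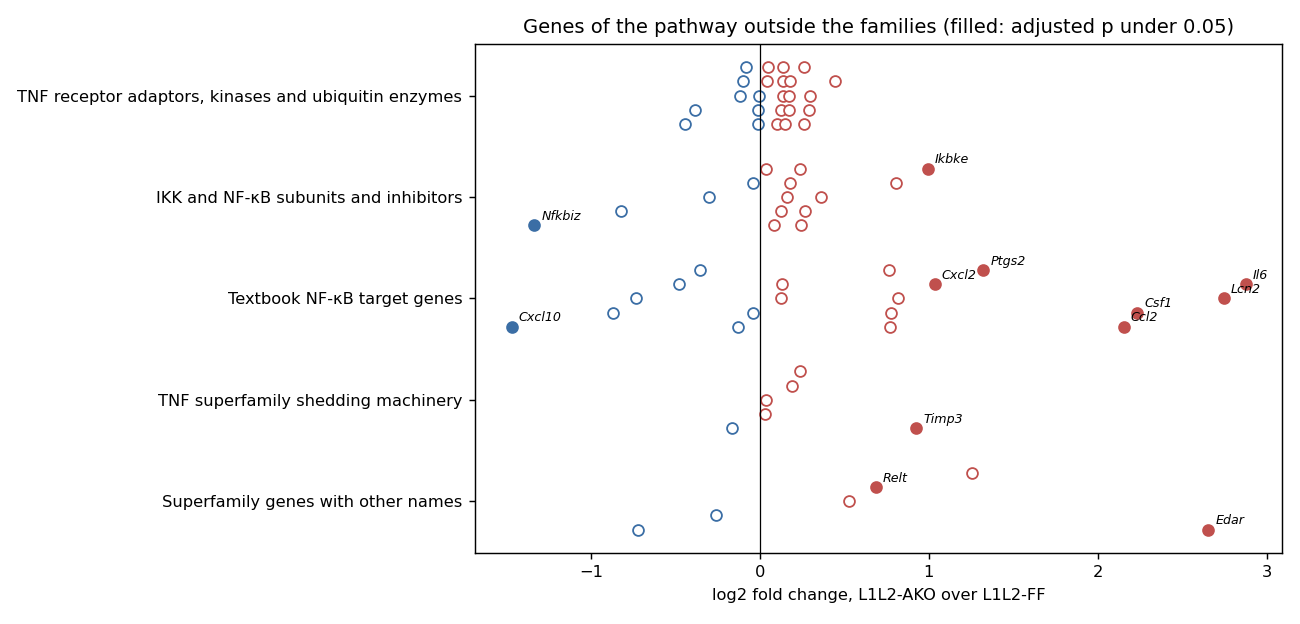
Log2 fold change of L1L2-AKO over L1L2-FF (x axis) of each tested gene of 5 lists (y axis) that act with the TNF families; filled points passed an adjusted p of 0.05 and are named, red is above and blue below 0. Of the 24 adaptors, kinases and ubiquitin enzymes none is filled, and 7 of the NF-κB target genes are. Of all tested genes, 16.5% passed.

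Markers of other cells moved with genotype, and their part in the results above was not tested. All 18 macrophage markers rose, or 100% against 9.28% of all tested genes. Their summed level was 317 to 610 CPM in L1L2-FF and 1199 to 1329.8 CPM in L1L2-AKO, with none at 0. The most abundant of them were *Mrc1*, *Lyz2* and *Csf1r*, with log2 fold changes of 1.84 ± 0.24, 1.08 ± 0.23 and 1.24 ± 0.26 (SE). Within L1L2-FF, replicate 2 had the highest macrophage sum and replicate 3 the lowest. *Tnfrsf1b*, *Tnfrsf13b*, *Tnfrsf11a* and *Cd40* were also lowest in replicate 3, whereas *Tnfrsf12a* was highest in it. Replicate 3 was the lowest L1L2-FF library for 38.5% of all tested genes, and *Tnfrsf11a* was highest in L1L2-FF replicate 1. Within L1L2-AKO the macrophage sum was 1199, 1329.8 and 1206 CPM in replicates 1 to 3, so replicates 1 and 3 were nearly level. *Tnfrsf1b* and *Tnfrsf13b* were lowest in replicate 1, *Cd40* and *Tnfrsf12a* were highest in it, and *Tnfrsf11a* was lowest in replicate 3. In bulk RNA, a change in the number of cells of a type and a change in RNA per cell cannot be told apart.

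None of 14 markers of T, B and NK cells passed in edgeR or limma-voom, of which 13 were tested and 3 had an unadjusted p under 0.05 in edgeR, and DESeq2's Wald test called 1, *Cd4*. Their sum was 11.5 to 34.0 CPM in L1L2-FF and 21.7 to 40.8 CPM in L1L2-AKO. The lymphocyte markers *Cd4*, *Lck* and *Cd79a* had means between 2.41 and 2.75 CPM in L1L2-FF, and their log2 fold changes were 1.25 ± 0.41, 1.03 ± 0.42 and 0.25 ± 0.41 (SE). None of 11 neutrophil and mast cell markers, led by *Kit*, *Cpa3* and *Cma1*, passed in edgeR or limma-voom. DESeq2 called 1, *Elane*, lower, and 3 had an unadjusted p under 0.05 in edgeR, *Elane* among them. *Elane* had 15 to 38 reads in L1L2-FF and 0 to 9 in L1L2-AKO, so it met edgeR's minimum count of 10 only in L1L2-FF. Of 7 Schwann cell markers, led by *Mbp*, *Prx* and *S100b*, 4 fell in edgeR, or 57.1% against 7.18% of all tested genes. DESeq2 called 7 and limma-voom 2, and all 7 markers had an unadjusted p under 0.05 in edgeR. Their sum was 240 to 510.1 CPM in L1L2-FF and 101 to 189 CPM in L1L2-AKO, without overlap. Of 12 adipocyte markers 6 fell in edgeR, among them *Cfd* and *Adipoq* but not *Fabp4*, or 50% against 7.18% of all tested genes. DESeq2 called 9 lower and limma-voom 6. The sum of the 12 was 20978 to 23076 CPM in L1L2-FF and 11860 to 14348 CPM in L1L2-AKO. Endothelial markers (*Cdh5*, *Pecam1* and *Kdr* most abundant) gave 1 call of 10, lower, or 10% against 7.18% of all tested genes. DESeq2 called 2 of them lower and limma-voom 1. Mural markers (*Rgs5*, *Pdgfrb*, *Notch3*) gave 1 higher and 2 lower of 7. These were 14.3% against 9.28% of all tested genes higher, and 28.6% against 7.18% lower. DESeq2 called 1 mural marker higher and 4 lower, and limma-voom 1 higher and 2 lower. Progenitor markers (*Cd34*, *Sema3c*, *Ly6a*) gave 1 higher and 3 lower of 8, or 12.5% higher and 37.5% lower. DESeq2 called 1 of them higher and 3 lower, and limma-voom 1 higher and 2 lower. Skeletal muscle markers (*Acta1*, *Mylpf*, *Tnnt3*) gave none of 7 in edgeR, with 3 of the 5 tested at an unadjusted p under 0.05, 3 lower in DESeq2 and 1 lower in limma-voom. For this list, the lymphocyte and NK cell list and the neutrophil and mast cell list, the share called in edgeR was 0%, against 16.5% of all tested genes.

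**Figure D5:**
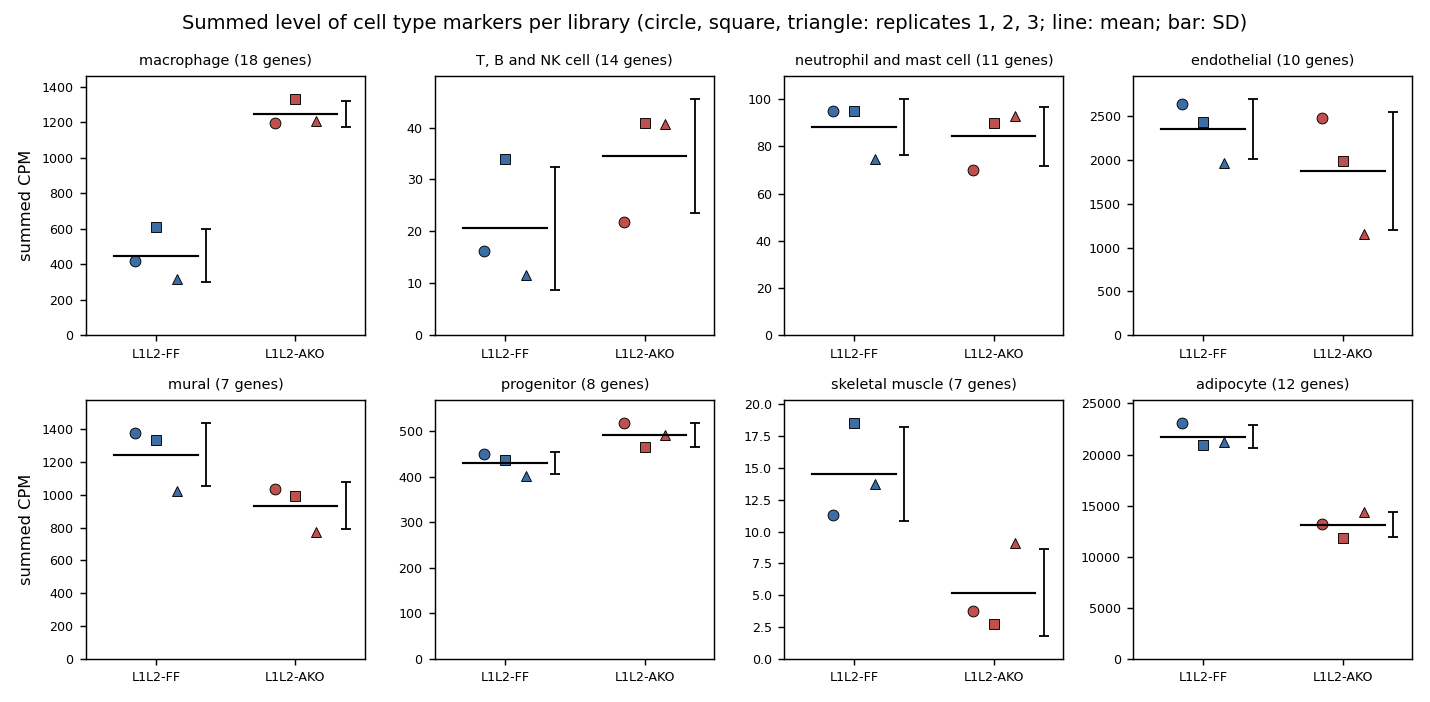
Summed CPM (y axis, starting at 0) of the markers of 8 cell types in each library; circle, square and triangle are replicates 1, 2 and 3, the line is the mean and the bar the SD (n = 3). The macrophage sum of every L1L2-AKO library lies above that of every L1L2-FF library, and the adipocyte sum lies below.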

How the data were processed

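RNA-seq was analysed for 6 libraries, 3 L1L2-FF and 3 L1L2-AKO, grouped by the submitters' labels. Libraries were stated to be biological replicates, each of 4 pooled mice. The authors sequenced paired ends on a BGISEQ-500 and aligned the reads to mm10 with HISAT2 2.1.0, with StringTie 1.3.5 also named in the submitters' processing notes. The deposited values are raw counts, whole numbers of reads per gene symbol. The annotation, counting program and strand setting are not given in the sources used here.

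Counts were tested with edgeR 4.0.16 in R 4.3.3: filterByExpr (minimum count 10, minimum total 15; 15674 genes kept, 21710 left out), TMM normalization, and a two-sided quasi-likelihood test with Benjamini-Hochberg adjustment over all kept genes and a threshold of 0.05. CPM are TMM-normalized. TPM used exon lengths of GENCODE M21 (mm10), which had all 48 members and gave their coordinates. SE was taken from each log2 fold change and its F statistic (size over root F). At 0 counts, up to 3 reads were allowed for, which covers counting error only. A permutation test of 3 against 3 cannot go below p = 0.1. The code was tested on simulated data with known changes. No 2 replicates agreed within sampling noise.

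Members and gene lists were chosen with earlier results of these data known. The text names the members past the threshold, *Tnf* and its receptors, all TRAF genes, the 3 ligands and 3 receptors highest in CPM, members with at most 3 counts in every library, up to 4 called genes per pathway list and the 3 most abundant markers per cell type. One marker gene is not reported here and was left out of the count and sum of its list. Other members, *Nfkbia*, *Ptgs2*, *Cxcl1*, *Cxcl2*, *Cxcl10* and the unchanged pathway genes were named after their values were seen. Alternatives were DESeq2 1.42.0 size factors and Wald test, upper-quartile scaling, library size alone, limma-voom (limma 3.58.1), no filter, at least 10 counts in every library, the robust setting, a replicate block and each library left out. Promoter windows came from RefSeq (GRCm38.p6).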

Additional observations from a re-analysis of the deposited data

How the results depend on the processing

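All 6 member calls kept their direction and stayed past the threshold under the 9 settings that used every library, and *Tnfrsf1a* was added with library size alone and with DESeq2's Wald test. Leaving out 1 library left 3 against 2: the number of members that rose ranged from 0 to 6, the number that fell from 0 to 1, and the number of all genes called from 1281 to 2845, against 2580 with all libraries. All 6 kept their direction in those fits. The signs that turned were of members with small fitted differences, and the cause was not tested. With upper-quartile scaling the log2 fold change was -0.034 for *Traf6* and -0.020 for *Traf7*, with library size alone it was -0.025 for *Traf6*, and with limma-voom it was -0.0014 for *Tnfrsf8* and 0.12 for *Tnfsf13os*. Over the fits without 1 library the log2 fold change ran from -0.070 to 0.10 for *Traf6*, -0.10 to 0.076 for *Traf7*, -0.30 to 0.067 for *Traf4*, -0.49 to 0.0082 for *Tnfsf10*, -0.071 to 0.19 for *Tnfsf12*, -0.27 to 1.01 for *Ltb*, -0.36 to 0.022 for *Tnfrsf10b*, -0.27 to 0.089 for *Tnfrsf14*, -0.0037 to 0.40 for *Tnfrsf23*, -0.23 to 0.52 for *Tnfrsf8*, -0.60 to 0.10 for *Tnfrsf9* and -0.51 to 0.21 for *Tnfsf13os*.

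Libraries that share a replicate number deviated from their group means with correlations of 0.19, 0.26 and -0.054, so the numbers were not taken to pair them, and not every library correlated best with its own number. With the replicate number as a block, 5 members rose and 1 fell, 2514 genes were called in all, and the sign of *Tnfsf13os* turned (0.014). Among the pathway genes the block ended the calls of *Cxcl2* (edgeR, adjusted p = 0.0614), *Edar* (0.0502) and *Relt* (0.0722). Read depth limits the 6 members with fewer than 10 reads in every library and the other 5 that were not tested.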

Other observations

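Among the 37 tested members, L1L2-FF replicate 2 was the highest L1L2-FF library for 19 (51.4%, against 40.0% of all tested genes) and L1L2-FF replicate 3 the lowest for 19 (51.4%, against 38.5%). L1L2-AKO replicate 1 was the highest L1L2-AKO library for 19 members (51.4%, against 33.4%) and L1L2-AKO replicate 3 the lowest for 18 (48.6%, against 31.5%).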
